A study of Drosophila melanogaster with 6 samples.

Results

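Transcripts of small heat shock proteins were followed in the oviduct of unmated and mated females of the fruit fly Drosophila melanogaster, for a list of 7 genes, Hsp22, Hsp23, Hsp26, Hsp27, Hsp67Ba, Hsp67Bc and l(2)efl. Members were taken as genes with a probe set that names them and no other gene in the platform annotation, and a gene with several such probe sets was to be read from its brightest one. This gave 3 measured members, Hsp26, Hsp27 and l(2)efl, of 10844 genes in all, each with 1 probe set. The other 4 have no value here. Hsp22 is named by 3 probe sets that also name CG4456, and Hsp23, Hsp67Ba and Hsp67Bc are not listed in the annotation. The statements below therefore concern 3 of the 7 genes.

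Small heat shock proteins carry the alpha-crystallin domain, which is also found in the alpha-crystallins of the vertebrate lens. They form large assemblies that hold unfolding proteins in a soluble state without using ATP, and hand them to the HSP70 and HSP40 chaperones for refolding. In the fly most of them are strongly induced by heat through the heat shock factor Hsf. Several are also made without any heat during development, and Hsp26 and Hsp27 transcripts are well known from the nurse cells of the ovary. The gene l(2)efl is the fly relative of vertebrate alpha B-crystallin and is known from muscle. Hsp22 is a mitochondrial member, and Hsp67Bc acts with the co-chaperone Starvin in clearing misfolded proteins.

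The oviduct, a muscle-coated epithelial duct between ovary and uterus, was dissected from females aged 3 days and kept at 23 degrees Celsius, give or take 2. The control group was unmated, and the other group had ended mating 3 h before dissection; no strain or genotype is stated. Tissue from 400 to 500 females was pooled, and each group was hybridised to 3 Affymetrix arrays that the labels call biological repeats. Whether each array had its own pool is not stated, so the spread between arrays may leave out the spread between pools. The duct's octopamine receptor gene Octbeta2R had intensities from 242.9 to 653.0 over the 6 arrays, while Oamb, the receptor that defines its epithelium, has no probe set of its own. The summed intensity of 10 measured muscle genes ran from 76844 to 112553, so muscle transcripts were bright on every array.

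Unmated arrays 1 and 2 stood apart from the other 4 in values other than those of the members. The median intensity of all tested probe sets was 86.2 and 86.0 there and from 60.6 to 66.5 on the others. The mean intensity of the 3 control probe sets for 18S rRNA was 1005.1 and 806.2 there and from 169.2 to 464.3 on the others. That of the 7 hybridisation spike-in probe sets was 391.3 and 364.7 there and from 594.9 to 746.1 on the others. The members' results are therefore also given without these 2 arrays, in a fit of 1 unmated against 3 mated arrays that takes the lone array to vary like the rest.

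Hsp26 and Hsp27 lay lower in mated than in unmated oviducts, and l(2)efl lay at about the same level in both. In limma, 0 members and 0 other probe sets had an adjusted p under 0.05 (0% of 13966). At an unadjusted p of 0.05, 2 of the 3 members, Hsp26 and Hsp27, were lower and 0 were higher. The background is 5.56% of probe sets lower and 1.04% higher under the same rule. Over the 3 members the median log2 difference, which is the value of Hsp27, was -1.25, against -0.16 for all genes. Of all genes 62.2% lay below 0.

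Hsp26, a cytosolic holding chaperone, had intensities of 672.1, 723.1 and 254.6 on unmated arrays 1, 2 and 3. On mated arrays 1, 2 and 3 it had 144.2, 187.1 and 118.7. All 3 mated values lay below all 3 unmated values, which was true of 8.59% of probe sets, while the reverse order was found in 2.33%. Its unmated mean was 549.9 ± 257, and its mated mean was 150.0 ± 34.6 (SD over 3 arrays each). The log2 difference of mated minus unmated was -1.76 ± 0.49 (SE), a level 3.38-fold lower, with a 95% interval from 1.53-fold to 7.46-fold lower. The limma adjusted p was 0.654 and the unadjusted p 0.00815. A more negative difference was found in 1.97% of all genes.

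The unmated values of Hsp26 were not alike. Arrays 1 and 2 averaged 2.74 times array 3, and array 3 stood 1.70 times above the mated mean. Without unmated arrays 1 and 2 the log2 difference was -0.79 ± 0.53 (SE), with an unadjusted limma p of 0.193. Among the 3 mated arrays the highest value was 1.58 times the lowest.

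Hsp27, a small heat shock protein found in both nucleus and cytoplasm, had intensities of 269.9, 390.1 and 101.6 on unmated arrays 1, 2 and 3. Its values on mated arrays 1, 2 and 3 were 90.7, 82.9 and 105.4. Here the groups overlapped, because unmated array 3 lay within the range of the mated arrays. The unmated mean was 253.9 ± 145 and the mated mean 93.0 ± 11.4 (SD over 3 arrays each). The log2 difference was -1.25 ± 0.53 (SE), a level 2.38-fold lower, with a 95% interval from 1.01-fold to 5.61-fold lower. The limma adjusted p was 0.748 and the unadjusted p 0.0481.

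Of the 2 lower members, Hsp27 rested more on unmated arrays 1 and 2, whose mean was 3.25 times array 3. Unmated array 3 was 1.09 times the mated mean. Without those 2 arrays the log2 difference of Hsp27 was -0.13 ± 0.49 (SE). A level that was at least 2 times higher on both of these arrays than on each of the other 4 was found for Hsp26 and Hsp27, and for 2.55% of all probe sets.

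The gene l(2)efl had intensities of 10063.5, 11285.8 and 15640.0 on unmated arrays 1, 2 and 3. On mated arrays 1, 2 and 3 it stood at 13728.9, 14249.5 and 13262.4. The 3 mated values lay close together and inside the range of the unmated ones, where arrays 1 and 2 were the lowest of all 6. Its mean was 12329.8 ± 2930 without mating and 13746.9 ± 494 after mating (SD over 3 arrays each). The log2 difference was 0.18 ± 0.32 (SE), with a 95% interval for the ratio of mated to unmated from 0.670 to 1.92 and a limma adjusted p of 0.957. The values on these arrays are compatible with any ratio inside that interval. Without unmated arrays 1 and 2 the log2 difference was -0.19 ± 0.48 (SE).

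**Figure D1:**
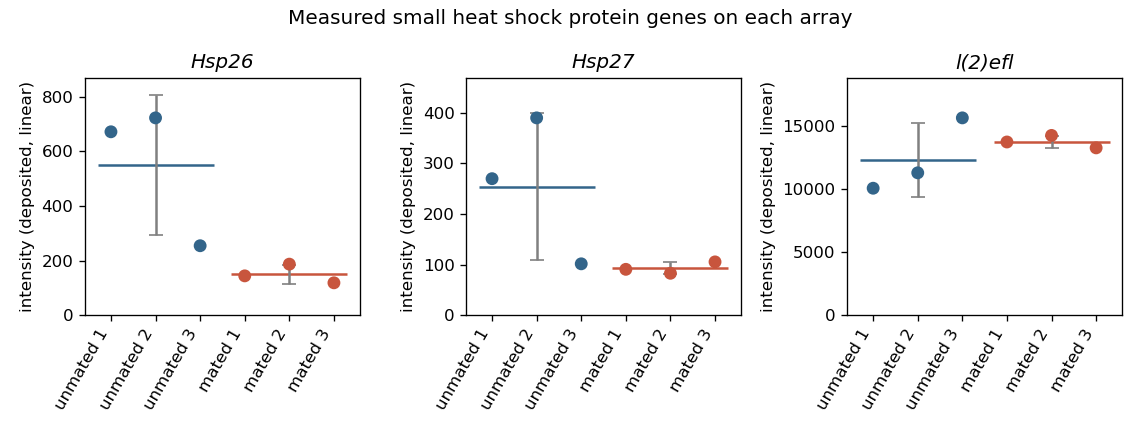
Deposited intensity (linear axis from 0) of each measured small heat shock protein gene on the 3 unmated (blue) and 3 mated (red) oviduct arrays, with the group mean as a line and the SD as a bar. Hsp26 and Hsp27 are highest on unmated arrays 1 and 2, and the 3 mated values of l(2)efl, 13728.9, 14249.5 and 13262.4, lie inside its unmated range.

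The 3 members did not share 1 pattern over the arrays. On the scale of log2 intensity minus each gene's own mean, the root mean square distance over the 6 arrays was 0.41 between Hsp26 and Hsp27. It was 1.19 between Hsp26 and l(2)efl, and 1.05 between Hsp27 and l(2)efl. Hsp26 and Hsp27 stood at 1.31 and 0.92 above their means on unmated array 1 and at 1.42 and 1.45 on unmated array 2. On the same arrays l(2)efl stood at -0.36 and -0.19. All 3 genes were read from the same 6 arrays, so these distances describe those arrays only.

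Markers of other tissues differed on the same arrays. Of 30 listed genes of ovary, eggshell and germline 26 were measured, and 21 of these lay lower in mated oviducts, beside 62.2% of all genes. The other 5, Vm26Ac, yellow-g, bam, bgcn and Sxl, lay higher. The summed intensity of the 26 was 15106, 14991 and 4034 on unmated arrays 1, 2 and 3, against 6372, 2662 and 3885 on mated arrays 1, 2 and 3. The eggshell gene Cp15 alone had 3100.1 and 6524.9 on unmated arrays 1 and 2. The germline gene vas, an RNA helicase, had 95.4 and 128.4 on unmated arrays 1 and 2 and from 19.7 to 26.8 on the other 4. These 4 values lie below 45.7, the highest value of a mouse control probe set, and cannot be told from background. The germline translation regulator osk had 270.8 and 359.5 on unmated arrays 1 and 2 and between 78.4 and 130 on the others. No listed marker was at 0 on any array.

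Genes listed as markers of midgut and Malpighian tubule had the same split, with 22 of 26 measured. Of these, 21 lay lower in mated oviducts, beside 62.2% of all genes. Uro, a Malpighian tubule gene of this list, was not measured, so the values are read for midgut only. Their summed intensity was 6145, 6579 and 2061 on unmated arrays 1, 2 and 3, and from 1275 to 2274 on the mated arrays. The median log2 difference of the ovary genes lay at -0.92 relative to all genes, and that of the midgut genes at -0.98. Without unmated arrays 1 and 2 these medians were 0.01 and -0.21. The part of these tissues in the levels of Hsp26 and Hsp27 was not tested. In such bulk RNA, fewer cells of a type and less RNA per cell cannot be told apart.

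The sum over 10 measured muscle markers ran from 76844 to 112553 in unmated and from 82526 to 109546 in mated oviducts. It was lowest on unmated array 2, at 76844, and highest on unmated array 3, at 112553, which was also the highest array for l(2)efl. The 2 orders differed elsewhere. On unmated array 1, the lowest for l(2)efl at 10063.5, the muscle sum was 88337. On mated array 3 it was 82526, with l(2)efl at 13262.4. The part of muscle in the level of l(2)efl was not tested. Of 5 listed oviduct markers 3 were measured, Octbeta2R, Mmp2 and bond, and all 3 had a log2 difference above 0. Octbeta2R and bond overlapped between the groups. Mmp2 had 22.9, 26.4 and 26.1 on the unmated against 75.5, 53.0 and 66.5 on the mated arrays, with a limma adjusted p of 0.621. Its unmated values lie below 45.7, the highest value of a mouse control probe set. Summed levels of 8 haemocyte markers overlapped between the groups, 9137 to 11535 without mating against 7952 to 10185 after it. Most of that sum is Pxn, at 6961.1 to 10153.3, while 7 of the 8 haemocyte genes had a log2 difference below 0 and 1, PPO1, an unadjusted p under 0.05. PPO1 had 152.2, 76.7 and 72.6 on the unmated arrays against 22.4, 80.2 and 25.1 on the mated ones. The sums of 5 neuron markers, from 82 to 146 and from 105 to 162, overlapped as well, as did those of 4 markers of the spermathecal gland, from 109 to 640 and from 224 to 297. Sums of 6 markers of the male accessory gland were from 134 to 212 in unmated and from 139 to 182 in mated oviducts, and 3 of these genes never exceeded 14.2, the lowest lower quartile of any array. For 8 fat body markers they were from 15110 to 28319 and from 9048 to 15828, with 7 of 8 below 0 and 1, Yp3, at an unadjusted p under 0.05. Most of the fat body sum is Yp1, Yp2 and Yp3, at 12586.0, 5895.9 and 8401.5 on unmated array 1. Yp1, Yp3 and apolpp had their 2 highest values on unmated arrays 1 and 2, as 16 of the 26 ovary genes had. This order was found in 23.6% of all probe sets and was counted after the values had been seen. Whether the Yp transcripts came from fat body was not tested. Of all genes 62.2% lay below 0. Below the all-gene median lay 5 of the 8 fat body genes and 5 of the 8 haemocyte genes. The part of haemocytes and fat body in the members' levels was not tested.

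**Figure D2:**
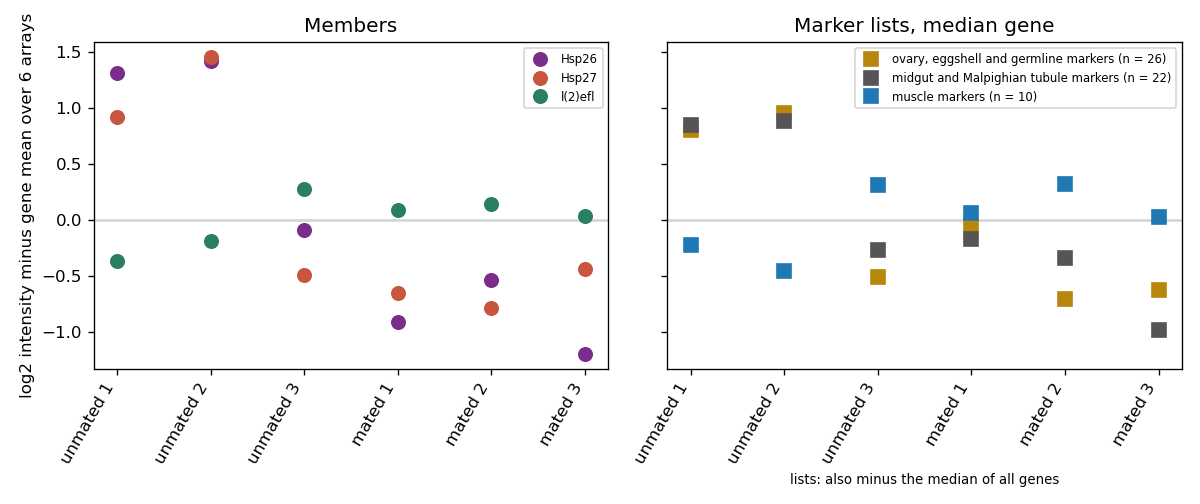
Log2 intensity minus the gene's mean over the 6 arrays for each measured member (left), and the median of this value over the genes of 3 marker lists after subtraction of the all-gene median (right). Hsp26, Hsp27 and the ovary and midgut lists are highest on unmated arrays 1 and 2, where l(2)efl and the muscle list are below 0.

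Of 4 other listed genes with an alpha-crystallin domain, CG4461, CG7409 and CG13133 were measured, 0 had an unadjusted p under 0.05 and all 3 overlapped between the groups. CG4461 and CG13133 had their 2 highest values on unmated arrays 1 and 2, as Hsp26 and Hsp27 had, and CG7409 did not. This order, counted after the values had been seen, was found in 23.6% of all probe sets, and no difference between these genes and the members was tested. CG7409 had intensities of 87.2, 398.1 and 57.6 on unmated arrays 1, 2 and 3 and of 1515.5, 73.0 and 1022.0 on mated arrays 1, 2 and 3. It was thus high on mated arrays 1 and 3 and low on mated array 2, and its log2 difference was 1.94 ± 1.24 (SE) with a limma adjusted p of 0.827. CG4461 had 235.0, 283.9 and 160.5 on the unmated arrays against 196.7, 167.1 and 122.5 on the mated ones. CG13133 had 75.4, 66.8 and 33.5 against 46.9, 41.3 and 40.7. The log2 differences of these 2 genes were -0.47 ± 0.37 and -0.37 ± 0.40 (SE).

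In RefSeq's gene order on chromosome arm 3L, the run of protein-coding genes reads Hsp67Bc, CG4456, Hsp22, CG4461, Hsp26, Hsp67Ba, Hsp23 and Hsp27. Within this run Hsp26, Hsp27 and CG4461 were measured, and all 3 had their 2 highest values on unmated arrays 1 and 2. This order was found in 23.6% of all probe sets and was counted after the values had been seen. The nearest measured genes on either side, CG4080, eIF4E1 and Fdx1, did not have it, and no difference from them was tested. CG4080, which follows Hsp27, had intensities of 486.1, 572.5 and 957.7 on unmated arrays 1, 2 and 3 and from 637.8 to 687.6 on the mated arrays. Beyond it, eIF4E1, which encodes the cap-binding translation factor, had from 1927.5 to 2436.3 in unmated and from 2112.5 to 2508.7 in mated oviducts. On the other side Fdx1 had from 79.8 to 137.9 and from 92.5 to 160.0. Farther out CG4022 had 362.4, 359.3 and 273.4 on the unmated against 293.2, 338.4 and 224.9 on the mated arrays. Cpsf5 had 239.1, 328.2 and 87.2 on the unmated against 76.3, 192.9 and 193.0 on the mated arrays. The 2 highest values of both CG4022 and Cpsf5 thus also lay on unmated arrays 1 and 2. Cpr67B, between eIF4E1 and CG4022, had its lowest values there, 1655.9 and 1441.2. The gene l(2)efl lies apart from the others, on chromosome arm 2R, between St3 and Pal2, whose values overlapped between the groups. Farther out retn, Pde8, St1, mRpL43 and sigmar overlapped as well. There CG30183 had 136.1, 163.1 and 144.5 on the unmated against 80.5, 55.3 and 38.7 on the mated arrays, and angel 581.1, 612.7 and 543.6 against 432.1, 516.0 and 415.1. All mated values lay below all unmated ones in 8.59% of probe sets. Among these neighbours of l(2)efl, angel and retn also had their 2 highest values on unmated arrays 1 and 2, retn at 842.0 and 833.2.

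The chaperones that work with small heat shock proteins had no member past the adjusted threshold in either direction. Of 20 listed HSP70, HSP110 and HSP40 genes 13 were measured, and 0 had an unadjusted p under 0.05. The median log2 difference of these 13 was 0.11, which is 0.26 above that of all genes, and 11 of 13 lay above the all-gene median. Without unmated arrays 1 and 2 it was 0.30 above that of all genes, and without mated replicate 2 it was 0.40 above. Probe sets for the heat-inducible Hsp70 genes of the B group name several genes each and were left out.

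Hsp68, a heat-inducible HSP70, had intensities of 75.0, 242.6 and 80.3 on unmated arrays 1, 2 and 3 and of 510.3, 94.9 and 177.2 on mated arrays 1, 2 and 3. Its highest value was on mated array 1, an array on which Hsp26 and Hsp27 were low. DnaJ-1, the inducible HSP40 that delivers clients to HSP70, stood at 392.0, 696.8 and 593.5 without mating and at 1443.6, 546.1 and 649.0 after mating. Hsc70-2 had 192.4, 225.3 and 374.5 against 729.5, 194.0 and 309.6, again with its highest value on mated array 1. The log2 differences of Hsp68, DnaJ-1 and Hsc70-2 were 0.85 ± 0.73, 0.55 ± 0.47 and 0.48 ± 0.55 (SE). The constitutive chaperone Hsc70-4 averaged 5072.3 ± 184 on the unmated and 4631.4 ± 1090 on the mated arrays (SD over 3 arrays each). The HSP40 gene Droj2 had a log2 difference of 0.20 ± 0.31 (SE).

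**Figure D3:**
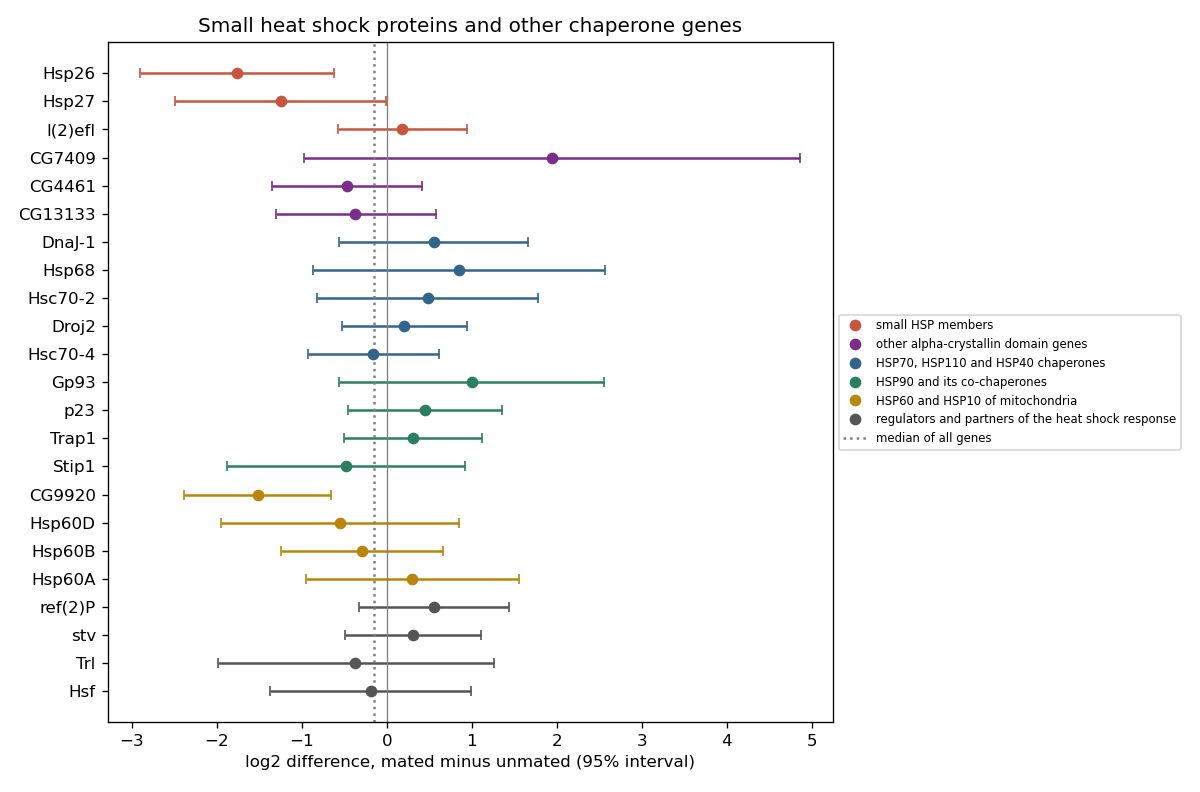
Log2 difference of mated minus unmated oviducts with its 95% limma interval for the measured members and the named chaperone genes, coloured by list, with the all-gene median as a dotted line. The intervals of Hsp26, Hsp27 and CG9920 lie below 0, unadjusted for multiple testing, and all others include 0. The values of CG9920, Hsp60D and Hsp60B cannot be told from background.

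Of 10 listed genes of HSP90 and its co-chaperones 8 were measured, with 7 above the all-gene median and 0 at an unadjusted p under 0.05. Their median log2 difference was 0.29 above that of all genes, and 0.40 above it without unmated arrays 1 and 2. It was 0.05 without mated replicate 3 and 0.51 without mated replicate 1. Hsp83, the cytosolic HSP90, has no probe set of its own. Gp93, the HSP90 of the endoplasmic reticulum, had intensities of 555.3, 1498.1 and 946.9 on unmated arrays 1, 2 and 3 and of 2741.6, 717.0 and 3195.4 on mated arrays 1, 2 and 3. Like CG7409 it was highest on mated arrays 1 and 3. Stip1, which couples HSP70 to HSP90, had 891.5, 1297.9 and 284.5 against 408.7, 436.1 and 680.6. The log2 differences of Gp93, Stip1, p23 and Trap1 were 1.0 ± 0.66, -0.48 ± 0.60, 0.45 ± 0.39 and 0.31 ± 0.34 (SE).

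All 6 listed genes of mitochondrial HSP60 and HSP10 were measured, and CG9920 was the only gene of the 5 chaperone lists with an unadjusted p under 0.05. CG9920 stood at 21.0, 22.4 and 12.3 on the unmated and at 6.3, 7.3 and 5.3 on the mated arrays, with a limma adjusted p of 0.627. All 6 values lie below the lower quartile of their own array and below 45.7, the highest value of a mouse control probe set, so they cannot be told from background and no size of difference is given. Hsp60A, the main mitochondrial HSP60, had 897.5, 1713.5 and 1120.3 against 2138.9, 709.4 and 2134.4. Hsp60D, at 7.2 to 28.0, and Hsp60B, at 10.2 to 22.4, also lay below 45.7 on every array. No size of difference is given for them either.

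Of 10 listed regulators and partners 6 were measured, and 0 had an unadjusted p under 0.05. Hsf, the transcription factor of the heat shock response, had intensities of 243.1, 310.9 and 107.1 on unmated arrays 1, 2 and 3 and of 117.8, 206.4 and 224.8 on mated arrays 1, 2 and 3. The groups overlapped, and its log2 difference was -0.19 ± 0.50 (SE). Trl, which encodes the GAGA factor that keeps heat shock promoters open, had 1237.1, 951.7 and 319.4 against 256.4, 994.7 and 690.1. The co-chaperone gene stv, which encodes Starvin, had 819.3, 971.6 and 641.8 against 806.3, 999.8 and 1202.0. The autophagy receptor gene ref(2)P had a log2 difference of 0.55 ± 0.38 (SE).

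**Figure D4:**
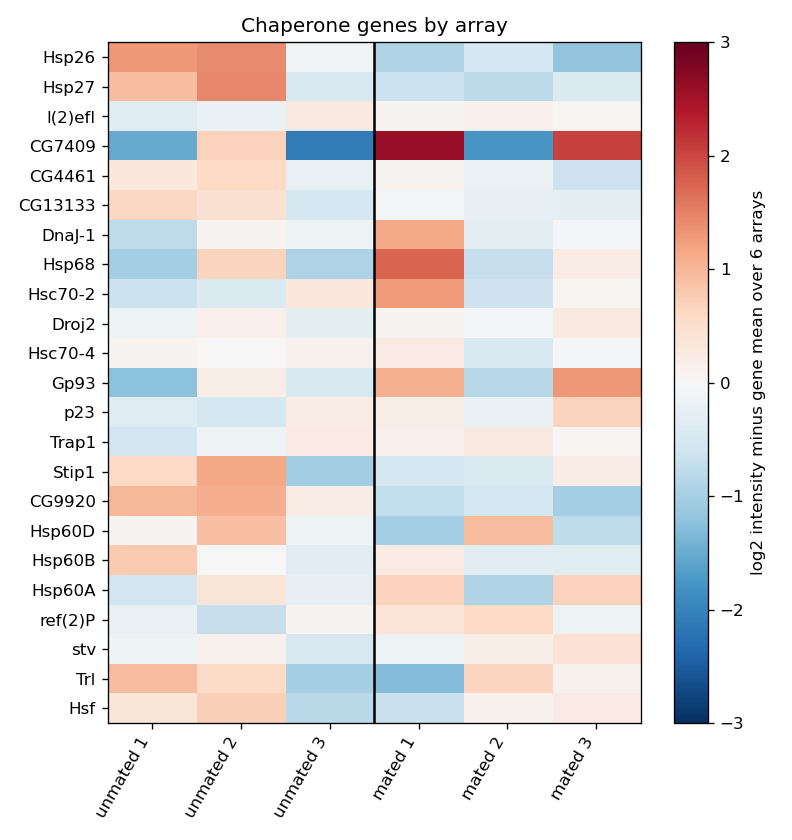
Log2 intensity minus the gene's mean over the 6 arrays (colour) for the measured members and the named chaperone genes (rows) on each array (columns, unmated left of the black line). Hsp26 and Hsp27 are red on unmated arrays 1 and 2, as are CG4461, CG13133, Stip1, CG9920, Hsf and some further rows, whereas CG7409, with intensities of 1515.5 and 1022.0, is red on mated arrays 1 and 3.

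Among 3535 genes that have a symbol other than a CG number, lie above the median level and stand in no list, those nearest to the median profile of the 3 members were S, zpg, PCNA, RpS5b and msd1. Likeness was the root mean square distance of centred log2 values over the 6 arrays, and it ran from 0.245 for S to 0.319 for RpS5b and msd1. The innexin gene zpg ran at 372.0, 442.7 and 134.6 without mating and at 164.5, 138.8 and 139.1 after it. RpS5b, a ribosomal protein gene, had 2096.5, 3240.0 and 753.3 against 1031.0, 722.6 and 875.4.

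Because the 3 members differ, the same measure was also applied to each one, a choice made after the values had been seen. Nearest to Hsp26 were Jon74E, at a distance of 0.271, and Jabba, at 0.286. Jabba, which encodes a lipid droplet protein, had values of 1123.3, 1229.3 and 280.8 without mating against 208.6, 204.7 and 208.4 after it. Nearest to Hsp27 were RpS5b, at 0.198, and zpg, at 0.227. Nearest to l(2)efl were und, at 0.065, and Sdc, at 0.069, where Sdc encodes the heparan sulfate proteoglycan syndecan. Sdc stood at 2839.1, 3345.8 and 4363.3 without mating and at 3633.1, 4332.8 and 3959.8 after it.

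The log2 difference of Hsp26 was below 0 in all 16 alternative settings, from -2.24 to -0.79, and its unadjusted limma p was under 0.05 in 15 of them. That of Hsp27 was also below 0 in all 16, from -1.81 to -0.13, with an unadjusted p under 0.05 in 8. For l(2)efl the range was from -0.19 to 0.45, and the sign turned only without unmated arrays 1 and 2. The value of Hsp27 was -0.84 without unmated replicate 2 and -1.81 without unmated replicate 3. The filter on level, trend and robust variance, the replicate block and the averaging of probe sets left the members' estimates unchanged. The sign under those settings was therefore fixed in advance. Only 1 of the 16 settings left out both unmated arrays 1 and 2.

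**Figure D5:**
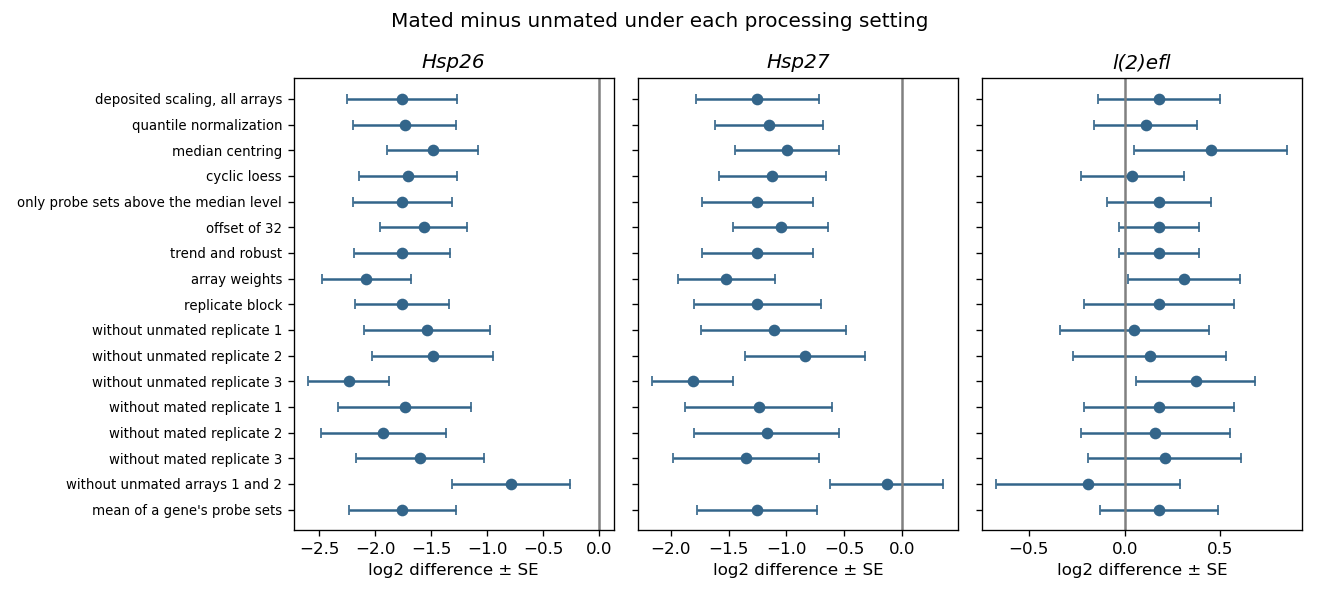
Log2 difference of mated minus unmated oviducts, with its SE as a bar, for each measured member under the deposited scaling and each alternative setting (rows). Without unmated arrays 1 and 2 the values are -0.79 for Hsp26, -0.13 for Hsp27 and -0.19 for l(2)efl.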

How the data were processed

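Per the labels, biotin-labelled RNA of pooled oviducts was hybridised to 6 Affymetrix Drosophila arrays. The deposited table gives a linear intensity for each probe set on each array. RMA is named, with no version, in the submitters' processing notes; because the values are linear and their quartiles differ between arrays, while the mean of the middle 96% is 250 on each, they were taken as scaled by 1 factor per array. Of 14010 probe sets, 44 controls were left out. Of the remaining 13966, 12443 name 1 gene, 327 several and 1196 are not listed. Gene symbols were brought up to date by Entrez identifier with the RefSeq gene table (assembly Release 6 plus ISO1 MT), from which only names and gene order were taken.

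Log2 of the intensity, with no offset or filter, was compared between groups by two-sided moderated tests (lmFit, eBayes) of limma 3.58.1 under R 4.3.3, with Benjamini-Hochberg adjustment over all 13966 probe sets. The fit was tested on simulated data with independent noise of equal spread on every array. That test does not cover arrays that deviate together. The number of arrays limits the precision. Detection calls were not used, so dim values cannot be told from background; the 4 mouse control probe sets ran from 1.4 to 45.7. The members and the lists were chosen with earlier results of these data known, so lists are given as counts and medians, without a test. Named were all members, all measured alpha-crystallin domain genes, the 4 genes with the smallest p in each other chaperone list, Hsf, Hsp68 and Hsc70-4, and the 5 genes nearest to the members' median profile. Marker genes and gene neighbours are given as examples beside these. The alternatives were cyclic loess, median centring or quantile normalization, an offset of 32, a filter keeping probe sets above the median level, array weights, trend and robust variance, a block for the replicate number, the omission of single arrays or of unmated arrays 1 and 2, and the averaging of probe sets per gene.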

Additional observations from a re-analysis of the deposited data

How the results depend on the processing

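No member and no other probe set passed an adjusted p of 0.05 under any alternative in limma; over these the adjusted p ran from 0.184 to 1 for Hsp26 and Hsp27 and from 0.631 to 1 for l(2)efl. The count of members with an unadjusted p under 0.05, 2 with the deposited scaling, was 1 after median centring and 0 without unmated arrays 1 and 2, and it ran from 1 to 2 when 1 array was left out. With the replicate number as a block it was 1, the unadjusted p of Hsp27 being 0.0687. Same-numbered arrays did not deviate together (correlations across probe sets of -0.177, 0.025 and -0.086), so the numbers were not taken as pairs. The members' median relative to all genes, -1.10, ran from -1.54 without unmated replicate 3 to -0.74 without unmated replicate 2, and was -0.19 without unmated arrays 1 and 2. With 3 members this median is the value of 1 gene. It was that of Hsp27 with the deposited scaling and that of l(2)efl without unmated arrays 1 and 2, so those 2 medians describe different genes. Without those 2 arrays l(2)efl turned to -0.19, and the relative median was 0.35 for the other alpha-crystallin domain genes, 0.17 for HSP60 and HSP10 and 0.67 for regulators and partners. With the deposited scaling these 3 were -0.21, -0.15 and 0.10. Leaving out 1 array, they ran from -0.42 (without unmated replicate 3) to -0.04 (without unmated replicate 1), from -0.38 (without unmated replicate 3 or mated replicate 2) to 0.01 (without unmated replicate 1), and from -0.13 (without mated replicate 3) to 0.38 (without mated replicate 1). Among probe sets above the median level the relative median was 0.78 for alpha-crystallin domain genes and 0.13 for HSP60 and HSP10, from fewer genes. The cause of the other shifts was not tested.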
